A study of Oryctolagus cuniculus with 9 samples.

Results

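The genes described here are 6 fibroblast growth factors, FGF1, FGF2, FGF7, FGF9, FGF10 and FGF18, and the 4 FGF receptors FGFR1 to FGFR4. They were taken by symbol from a gene count table of rabbit urethral tissue, where they are 10 of 28788 gene rows, and all 10 had enough counts to be tested among 17102 genes. The study sequenced polyadenylated RNA from 9 libraries in work on a urethral repair stent and trilayer hydrogels. The libraries carry the codes S9, S7 and S6, with 3 each, and are written below as code and number. What each code stands for, with its strain, treatment, time and age, is information not given in the sources used here, so groups are compared as codes with no control named. No label ties a library to an animal. A p-value therefore measures only the spread between libraries, and that spread may be technical.

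FGF ligands are secreted signalling proteins that bind receptor tyrosine kinases together with heparan sulphate on the cell surface. Bound receptors start the RAS and MAP kinase cascade and phospholipase C signalling, and the response is limited by inhibitors that the pathway itself induces. In epithelial organs FGF7 and FGF10 come from the connective tissue and act on a splice form of FGFR2 in the epithelium, while FGFR1 is mainly a receptor of fibroblasts and other mesenchymal cells. Splice forms of a receptor share 1 row of the count table and are not separated here.

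Total counts lay between 35127085 and 36832773 per library. The libraries S9_4, S7_3 and S6_4, 1 of each group, held low counts of several mitochondrially encoded genes, with ATP6 at 21.5 to 25.9 CPM against 1946 to 3258 CPM in the other 6, called the 6 high-mitochondrial libraries below. CPM are TMM-scaled counts relative to library size. The split also held for COX1, COX2, COX3 and ND1, but the libraries overlapped for CYTB, ND4 and ND5. CYTB had 1221 to 2137 CPM in S9_4, S7_3 and S6_4, against 1461 to 2590 CPM in the other 6. The name therefore refers to only part of the mitochondrial genes. Results are also given for the 6 high-mitochondrial libraries. The tissue label was set against marker genes. All 11 epithelial, 10 smooth muscle and 11 fibroblast markers in the table had counts in every library. The urothelial marker UPK3B was at 0 in 7 of 9 libraries, UPK1A and UPK3A in 1 each, and the 7 urothelial markers summed to 71.7 to 119 CPM in S9, 86.3 to 140 CPM in S7 and 106 to 284 CPM in S6. MYH1, a myosin of striated muscle, was at 0 in every library. Of the other striated muscle markers, ACTA1 had 10 to 181 counts in every library but S9_1, where it was at 0. MYH7 and MYL1 had 14 and 20 counts in S9_2 and at most 1 elsewhere. MYH2, TNNT1, TNNT3 and CKM had no row by symbol.

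FGF1, FGFR1 and FGFR2 were higher in S9 than in S6, and no member was called lower. These are 3 of 10 members with an adjusted p below 0.05 by edgeR's quasi-likelihood test, beside 12.4% of all genes tested. At an unadjusted p below 0.05 there were 5 members, beside 31.2% of all genes. Among all genes 6.02% were called higher and 6.34% lower. The median log2 fold change of the 10 members was 0.58, against -0.01 over all genes tested. The members were chosen with earlier results of these data known, so these shares are not free of that choice. In 4 of the 10, FGF1, FGF2, FGFR1 and FGFR2, every S9 library lay above every S6 library, beside 18.6% of all genes that lay apart in that direction and 35.5% in either.

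**Figure D1:**
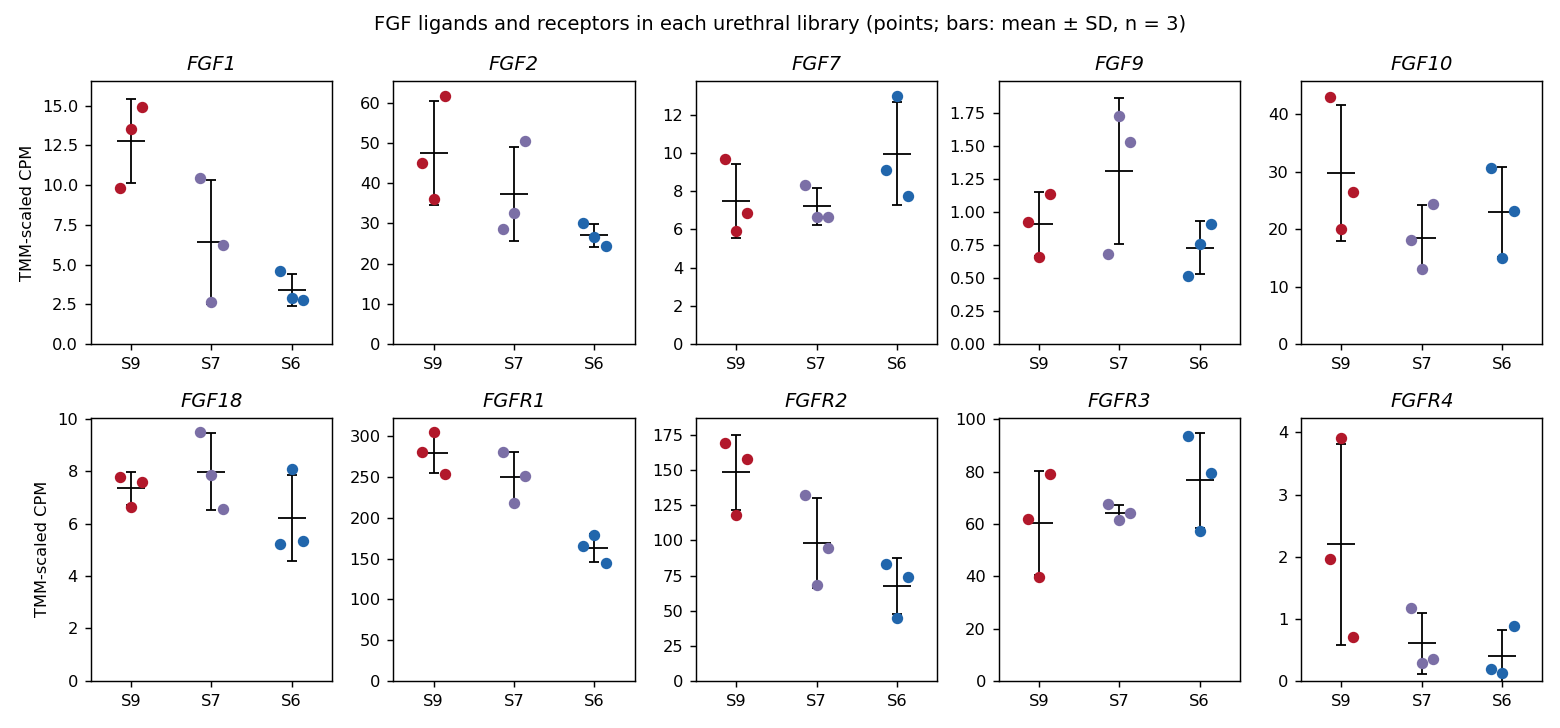
TMM-scaled CPM (vertical axis, from 0, scaled per gene) of the 10 members in the S9, S7 and S6 libraries (horizontal axis). Points are libraries in the order of their numbers, and bars show mean ± SD of 3. The S9 points of FGF1, FGF2, FGFR1 and FGFR2 lie above all S6 points, and the groups overlap for the other 6 genes.

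FGFR1 was the member with the highest level per length. It had 280, 305 and 254 CPM in S9, 280, 218 and 252 CPM in S7, and 166, 179 and 145 CPM in S6. Every S9 and every S7 library lay above all S6 libraries, and S9 and S7 overlapped. Mean levels were 280 ± 25.4 CPM in S9, 250 ± 31.3 CPM in S7 and 163 ± 17.2 CPM in S6 (SD, n = 3 each). The log2 fold change of S9 against S6 was 0.78 (SE 0.15, 95% interval 0.43 to 1.12, edgeR adjusted p = 0.0231). The call was lost without S9_1 (adjusted p = 0.0957), S9_2 (0.0874) or S6_4 (0.0734), and over the 6 high-mitochondrial libraries the log2 fold change was 0.76 (edgeR adjusted p = 0.0866).

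FGFR2 carries the signals of FGF7 and FGF10 to epithelia and, in another splice form, is a receptor of mesenchymal cells. It had 169, 118 and 158 CPM in S9, 132, 68.5 and 94.6 CPM in S7, and 83.4, 45.1 and 73.8 CPM in S6. The lowest S9 library stood above the highest S6 library, and the S7 libraries spread across both. S9 exceeded S6 by 1.14 on the log2 scale (SE 0.30, 95% interval 0.47 to 1.81, edgeR adjusted p = 0.0408). By edgeR the call was lost without S9_1 (adjusted p = 0.137), S9_2 (0.0899), S9_4 (0.0743), S7_4 (0.0635), S6_3 (0.0817) or S6_4 (0.0987). The adjusted p was 0.13 over the 6 high-mitochondrial libraries and 0.0502 with a term for the other 3 libraries.

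FGFR3, a receptor known in urothelium, did not pass the test and had the opposite sign. It had 61.9, 39.7 and 79.3 CPM in S9, 67.6, 61.4 and 64.0 CPM in S7, and 93.5, 57.4 and 79.4 CPM in S6. The groups overlapped, and the S9 and S6 libraries each spread over a wide range. Its log2 fold change, S9 against S6, was -0.35 (SE 0.26, 95% interval -0.93 to 0.23, edgeR adjusted p = 0.392).

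FGFR4, best known as a liver receptor for a bile acid signal, was close to the lower limit of the assay, with 4 to 143 counts per library. It had 1.96, 3.92 and 0.715 CPM in S9, 1.17, 0.292 and 0.354 CPM in S7, and 0.190, 0.121 and 0.885 CPM in S6. S9_1 and S9_2 were the highest of the 9 libraries, but S9_4 lay below S6_4. The log2 fold change of S9 against S6 was 2.45 with a wide error (SE 0.97, edgeR adjusted p = 0.124), while DESeq2 gave an adjusted p of 0.0475.

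Among the 6 member ligands, FGF1 had the largest log2 fold change of S9 against S6. FGF1 binds all FGF receptors and leaves cells without a classical signal peptide. It had 9.82, 13.6 and 14.9 CPM in S9, 10.4, 2.63 and 6.26 CPM in S7, and 4.58, 2.91 and 2.79 CPM in S6. All S9 libraries lay above all S6 libraries, whereas S7 ran from below the lowest S6 library to within the S9 range. In S9 its level exceeded that in S6 by 1.90 on the log2 scale (SE 0.47, 95% interval 0.82 to 2.97, edgeR adjusted p = 0.0371). The call was lost by edgeR without S9_1 (adjusted p = 0.0995), S9_2 (0.105), S9_4 (0.0684), S7_4 (0.0588), S6_3 (0.0877) or S6_4 (0.115), and over the 6 high-mitochondrial libraries (log2 fold change 1.64, adjusted p = 0.0974).

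FGF2, basic fibroblast growth factor, is a mitogen of fibroblasts, smooth muscle and endothelial cells. It had 44.9, 36.1 and 61.6 CPM in S9, 28.7, 32.7 and 50.5 CPM in S7, and 30.2, 26.6 and 24.4 CPM in S6. The S9 libraries lay above those of S6, yet the difference did not pass the test (0.81 on the log2 scale, SE 0.26, edgeR adjusted p = 0.0694), and DESeq2 gave an adjusted p of 0.0242. In the RefSeq annotation of assembly mOryCun1.1, FGF2 overlaps NUDT6, FGF7 overlaps FAM227B, FGFR1 overlaps LETM2, and FGF1 and FGF2 each overlap a long noncoding RNA. Reads of overlapping genes cannot be told apart without a stated strand setting. NUDT6 had 5.52 to 11.04 CPM, LETM2 at most 1.01 CPM and FAM227B at most 0.0529 CPM in these libraries.

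FGF7 and FGF10, the connective tissue ligands for the epithelium, did not pass the test in any of the 3 comparisons. FGF10 had 42.9, 20.0 and 26.4 CPM in S9, 18.1, 13.1 and 24.4 CPM in S7, and 30.7, 15.02 and 23.1 CPM in S6. S9_1 was the highest library, and the groups overlapped. FGF7 had 9.66, 5.92 and 6.88 CPM in S9, 8.32, 6.63 and 6.67 CPM in S7, and 9.13, 13.0 and 7.77 CPM in S6. Here S6_3 was the highest library and the groups again overlapped. The log2 fold changes of S9 against S6 were 0.38 for FGF10 (95% interval -0.44 to 1.19) and -0.41 for FGF7 (-1.05 to 0.23). The intervals include a 2-fold rise of FGF10 and a 2-fold fall of FGF7 in S9.

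FGF18, a ligand known from skeletal and lung growth in mice, ranged from 6.63 to 7.78 CPM in S9, from 6.56 to 9.49 CPM in S7 and from 5.20 to 8.08 CPM in S6. FGF9, a ligand of epithelium and mesothelium in the mouse lung, had 19 to 59 counts per library and ranged from 0.657 to 1.14 CPM in S9, from 0.682 to 1.72 CPM in S7 and from 0.515 to 0.911 CPM in S6. The groups overlapped for both genes. Neither passed the test, with S9 against S6 log2 fold changes of 0.24 for FGF18 (edgeR adjusted p = 0.575) and 0.32 for FGF9 (0.722).

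S7 lay between S9 and S6 in mean level for FGF1, FGF2, FGFR1, FGFR2, FGFR3 and FGFR4, but no member was called in either comparison with S7. Against S6, edgeR called 0 of 10 members at an adjusted p below 0.05, beside 0.111% of all genes, and 1 member, FGFR1, had an unadjusted p below 0.05, beside 17.1% of all genes. By edgeR FGFR1 differed by 0.62 on the log2 scale (SE 0.15, adjusted p = 0.121). It was the only member whose S7 and S6 libraries did not overlap, beside 21.2% of all genes, of which 10.7% lay higher in S7. It was called by DESeq2 (adjusted p = 0.00483) and by limma-voom (0.0377). FGF1 had 0.91 (95% interval -0.14 to 1.96) and FGFR2 0.55 (-0.12 to 1.21) on the log2 scale.

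Between S9 and S7, edgeR called 0 of 10 members and 0.00% of all genes, no member had an unadjusted p below 0.05 beside 9.21% of all genes, and DESeq2 and limma-voom called 0 members. The log2 fold change of FGFR1 was 0.16 (95% interval -0.18 to 0.51). That of FGFR2 was 0.59 (-0.07 to 1.26), that of FGF1 0.99 (-0.06 to 2.03), and that of FGF10 0.68 (-0.14 to 1.51). The libraries of S9 and S7 overlapped for each of the 10 members, beside 17.2% of all genes that lay apart. In the F test of the 3 groups together edgeR called 0 members, beside 2.43% of all genes, and 4 members had an unadjusted p below 0.05 beside 25.1% of all genes, of which FGFR1 had the smallest adjusted p at 0.0534. DESeq2 called 3 members in that test and limma-voom 2. The comparisons share libraries and are not independent of each other.

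**Figure D2:**
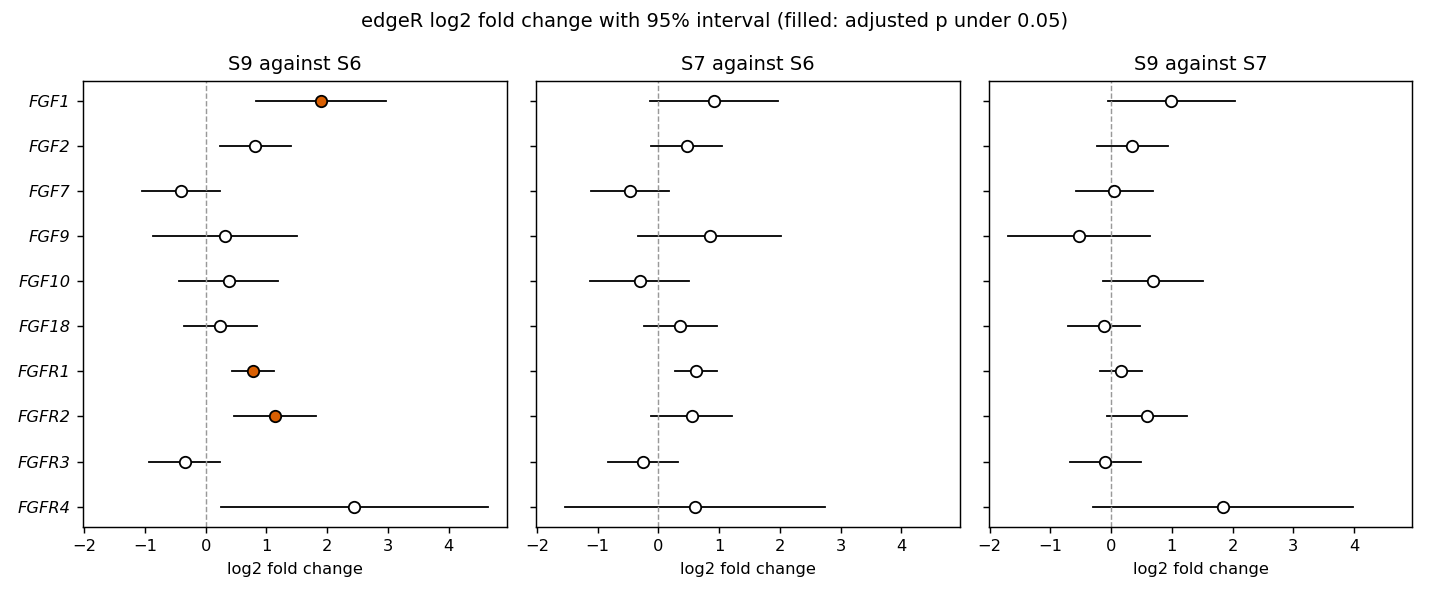
Log2 fold change by edgeR (horizontal axis) of each member (vertical axis) for S9 against S6, S7 against S6 and S9 against S7. Lines are 95% intervals and filled points have an adjusted p below 0.05. FGF1, FGFR1 and FGFR2 are filled in the first panel and no point is filled in the others.

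Levels of different genes were compared on the authors' FPKM (fragments per kilobase of gene and sequencing depth), which allow for gene length. FGFR1 ranked first in each group, at a mean of 76.3 FPKM in S9, 65.2 FPKM in S7 and 42.8 FPKM in S6, above the full range of the next receptor. FGFR2 came second in S9 at 32.1 FPKM, apart from FGFR3 at 15.2 FPKM. In S7 FGFR2 had 20.4 FPKM and FGFR3 15.4 FPKM with overlapping ranges. In S6 FGFR3 had 18.6 FPKM and FGFR2 14.1 FPKM, also with overlapping ranges. FGF2 and FGF10 were the most abundant of the 6 ligands and overlapped with each other in every group, at 7.60 and 7.57 FPKM in S9, 5.67 and 4.50 FPKM in S7, and 4.14 and 5.64 FPKM in S6. FGF1 overlapped FGF7 in S9 and S7, while in S6 FGF1, at 0.439 FPKM, lay below FGF18, at 0.614 FPKM, with overlapping ranges. FGF9 and FGFR4 stood at the end of the order, with FGF9 at 0.388, 0.529 and 0.298 FPKM and FGFR4 at 0.596, 0.160 and 0.108 FPKM in S9, S7 and S6.

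The makeup of the receptor pool was described by the levels of FGFR2 and FGFR3 relative to each other. The FPKM ratio of FGFR2 to FGFR3 was 2.36, 2.56 and 1.72 in S9, 1.68, 0.961 and 1.27 in S7, and 0.768, 0.677 and 0.800 in S6. The 3 groups did not overlap in this ratio, with S9 highest and S6 lowest. The lowest S9 value, 1.72, was barely above the highest S7 value, 1.68. How often other pairs of genes keep the groups apart was not counted. The ratio was chosen after the values were seen and was not tested. The ratios of FGFR1 to FGFR2, FGFR1 to FGFR3 and FGF10 to FGF7 did not keep all 3 groups apart. FGFR3 took 8.31% to 16.1% of the summed receptor FPKM in S9, 13.8% to 17.2% in S7 and 19.7% to 27.0% in S6. FGFR2 took 21.3% to 28.3% in S9, 16.5% to 23.3% in S7 and 13.4% to 21.1% in S6. The share of FGFR1 overlapped between groups, at 56.2% to 69.5% in S9, 62.6% to 66.3% in S7 and 52.2% to 66.9% in S6, and that of FGFR4 stayed at or below 0.90% in every library. The summed receptor level was 116 to 131 FPKM in S9, 81.9 to 118 FPKM in S7 and 66.7 to 85.2 FPKM in S6.

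**Figure D3:**
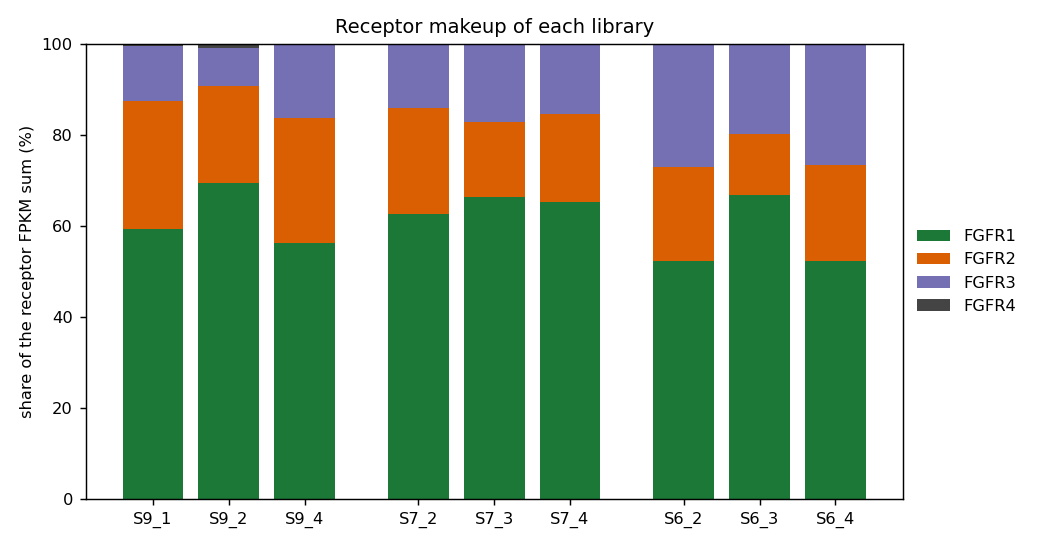
Share of each receptor in the summed FPKM of FGFR1 to FGFR4 (vertical axis, percent) for each library (horizontal axis, grouped as S9, S7 and S6). The FGFR3 segment covers 8.31% to 16.1% in S9 and 19.7% to 27.0% in S6, and FGFR1 is the largest segment in all 9 libraries.

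Markers of several cell types moved with the same codes. The counts of called markers stand beside 6.02% of all genes called higher and 6.34% called lower in S9 than in S6. Those at an unadjusted p below 0.05 by edgeR stand beside 31.2% of all genes. Smooth muscle markers summed to 7037 to 13360 CPM in S9, 3847 to 11650 CPM in S7 and 2252 to 3866 CPM in S6, and 7 of 10 were called higher in S9 than in S6. In S7 all 3 called members shared the order of the smooth muscle sum, in S9 only FGFR1 and in S6 only FGF1. What these orders of 3 libraries mean was not tested. In S9 the sum was highest in S9_2 and lowest in S9_4, as was FGFR1, but FGF1 was highest in S9_4 and FGFR2 lowest in S9_2. In S7 the sum and all 3 genes were highest in S7_2 and lowest in S7_3. In S6 the sum was highest in S6_2 and lowest in S6_4, as was FGF1, while FGFR1 was highest in S6_3 and FGFR2 lowest in S6_3. Such orders were not particular to smooth muscle. The endothelial sum shared the order of FGFR1 in all 3 groups, and the fibroblast sum did so in S9 and S6 but not in S7. In S7 the endothelial and nerve sums shared the order of all 3 called members. What these orders mean was not tested either. Leukocyte markers summed to 164 to 316 CPM in S9, 874 to 2645 CPM in S7 and 4162 to 6575 CPM in S6, and 11 of 12 were called lower in S9 than in S6. In S7 and S6 most of that sum came from S100A8 and S100A9. They averaged 359 and 1371 CPM in S7, 1232 and 3469 CPM in S6, and 27.89 and 74.55 CPM in S9. Between S9 and S7 edgeR called 0 of the 12 markers, beside 0.00% of all genes, and 2 had a positive log2 fold change. The libraries of S9 and S7 lay apart for 4 of the 12, all lower in S9, beside 17.2% of all genes. Fibroblast markers summed to 39460 to 52510 CPM in S9, 47970 to 105200 CPM in S7 and 27260 to 45140 CPM in S6, with 0 of 11 called by edgeR and 3 with an unadjusted p below 0.05 between S9 and S6. Epithelial markers overlapped, at 4041 to 7418 CPM in S9, 5961 to 6996 CPM in S7 and 4348 to 6349 CPM in S6, with KRT15 and KRT18 called higher of 11. The other way, 8 of the 11 had a negative log2 fold change of S9 against S6 (median of the list -0.27), and EPCAM (-0.99) and CLDN7 (-0.92) had an unadjusted p below 0.05 by edgeR without passing the adjusted threshold. Nerve and Schwann cell markers summed to 292 to 416 CPM in S9, 95.01 to 298 CPM in S7 and 59.7 to 199 CPM in S6, with 4 of 7 called higher in S9. Their sum was highest and lowest in the same libraries as FGFR2 in S7 and S6, but not in S9. Endothelial markers summed to 1206 to 2536 CPM in S9, 1033 to 2392 CPM in S7 and 1319 to 1547 CPM in S6, with 3 of 9 called higher. Of 6 tested urothelial markers, PSCA alone was called, lower in S9 than in S6 (log2 fold change -6.75, edgeR adjusted p = 0.0164). Without passing the test, UPK1A and UPK3A lay below S6, on 10 and 14 counts in S9, and UPK1B lay above it. Over all genes 35.5% lay apart in either direction. The part of these cell types in the FGF results was not tested, and in bulk tissue fewer cells of a type and less RNA per cell cannot be told apart.

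The genes whose levels followed the called members most closely over the 9 libraries were found by the root-mean-square difference of centred log2 CPM, among 10938 genes with a symbol and a mean of at least 5 CPM. For FGF1 these were SPOCK2 (0.23), C1H9orf152 (0.29) and SGCA (0.30), where the median gene differed by 0.99. For FGFR1 they were IQSEC1 (0.080), BRMS1L (0.091) and PKIG (0.10), against a median of 0.46. For FGFR2 they were SEMA3D (0.13), ETV1 (0.15) and AHDC1 (0.15), against a median of 0.65. ETV1 encodes an ETS transcription factor that FGF signalling is known to induce, and had 8.89, 7.23 and 6.64 CPM in S9, 6.44, 3.77 and 5.01 CPM in S7, and 4.58, 2.42 and 4.26 CPM in S6. Its S9 libraries lay above those of S6 without passing the test (log2 fold change 1.01, edgeR adjusted p = 0.0767). ETV1 was picked for following FGFR2 in these same libraries, so this difference is no separate result. The related factors ETV4 and ETV5 had log2 fold changes of -0.82 and 0.29 between S9 and S6. FGFR1 and FGFR2 differed from each other by 0.41, FGF1 from FGFR2 by 0.50, and FGF1 from FGFR1 by 0.68. By closeness among the 10938 genes, FGFR2 ranked 4093 for FGFR1 and 199 for FGF1. FGFR1 ranked 969 for FGFR2 and 895 for FGF1, and FGF1 ranked 2224 for FGFR2 and 8866 for FGFR1.

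A further 82 genes of the FGF pathway were listed by role, of which 64 were tested. The lists were chosen with earlier results of these data known, so the shares given here and below are not free of that choice. Between S9 and S6, 10 were called higher and 5 lower by edgeR, together 23.4% of those tested beside 12.4% of all genes, and the median log2 fold change of the 64 was 0.30 against -0.01 over all genes. In the other comparisons edgeR called 0 of them, with 23 of 64 at an unadjusted p below 0.05 for S7 against S6, beside 17.1% of all genes, and 8 of 64 for S9 against S7, beside 9.21%, while DESeq2 called 11 and 0 and limma-voom 4 and 0. All 15 calls were lost without S9_1 or S9_2 and over the 6 high-mitochondrial libraries, and 14 without S6_4, where DUSP5 alone kept an adjusted p of 0.0435. Without S6_3 the calls of FGF23, GPC4, GPC6, HSPG2 and PTPN11 were lost, without S6_2 those of DUSP4, HSPG2 and PTPN11, without S7_4 those of FGF23, FGFBP2 and PTPN11, without S9_4 those of DUSP4 and HPSE, and without S7_2 that of HSPG2. Over these 9 fits the edgeR count ran from 0 to 16.

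Among ligands outside the 10 members, FGF23 fell in S9. FGF23 is known as a bone hormone that lowers blood phosphate. It had 0, 0 and 0.371 CPM in S9, 0.246, 0 and 0 CPM in S7, and 4.77, 34.8 and 4.26 CPM in S6. All S6 libraries lay far above the others, and S6_3 was the highest. These levels rest on 14 counts over the S9 libraries, 9 over those of S7 and 1484 over those of S6. By edgeR, S9 against S6 gave -6.84 on the log2 scale (SE 1.74, adjusted p = 0.039), and -5.14 without S6_3 (adjusted p = 0.112). FGF23 stayed called in 11 of 21 alternative fits, and DESeq2 gave no adjusted p for it. FGF11, FGF12 and FGF13 are intracellular FGF homologues that do not act as secreted ligands. Their S9 libraries lay above those of S6, as did 18.6% of all genes, without passing the test. The log2 fold changes were 1.18, 2.04 and 1.80, with edgeR adjusted p of 0.0644, 0.144 and 0.0658. FGF12 had only 5, 22 and 4 counts in S6_2, S6_3 and S6_4.

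Of the 14 tested co-receptors and binding proteins 6 rose and 1 fell in S9 against S6, or 50% beside 12.4% of all genes. FLRT1, a membrane protein that binds FGF receptors, had 22.6, 26.4 and 18.9 CPM in S9, 17.5, 6.69 and 14.5 CPM in S7, and 4.66, 2.60 and 2.63 CPM in S6. By edgeR, S9 exceeded S6 by 2.78 on the log2 scale (SE 0.40, adjusted p = 0.0146). All S9 and S7 libraries lay above those of S6. The heparan sulphate proteoglycans SDC2 (log2 fold change 0.93), GPC6 (1.81), GPC4 (0.80) and HSPG2 (1.11) and the FLRT family member FLRT2 (1.20) were called higher. FGFBP2, an FGF binding protein homologue that in humans marks cytotoxic lymphocytes, was called lower on 6 counts in S9 against 294 in S6. GPC4, HSPG2 and FGFBP2 were named after their values were seen. KLB, the co-receptor of FGFR4 for endocrine FGFs, was too low to test, with 15 counts in S9, 2 in S7 and 12 in S6.

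Of 12 heparan sulphate enzymes 1 rose and 1 fell in S9, a share of 16.7% that lies near the 12.4% of all genes. NDST1, which places N-sulphate groups on the chains, averaged 172 ± 11.01 CPM in S9 against 89.3 ± 8.14 CPM in S6 (SD, n = 3 each), a log2 fold change of 0.95 by edgeR (SE 0.14, adjusted p = 0.0154). HPSE, the heparanase that cuts the chains, averaged 15.3 ± 2.39 CPM in S9 against 35.1 ± 6.45 CPM in S6, a log2 fold change of -1.20 by edgeR (SE 0.25, adjusted p = 0.0251). SULF1, an extracellular sulphatase that removes sulphate from the chains, averaged 80.4 ± 26.0 CPM in S9 against 43.7 ± 14.99 CPM in S6 and did not pass (edgeR adjusted p = 0.0781). In the signal relay list 2 of 17 rose, PLCG1, the phospholipase that receptors bind directly (log2 fold change 0.62), and the phosphatase PTPN11 (0.61), and none was called lower. These are 11.8% of the list, near the 12.4% of all genes.

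Among 17 tested targets and feedback inhibitors 1 rose and 2 fell in S9, a share of 17.6% beside 12.4% of all genes. IL17RD, a membrane inhibitor of FGF signalling also named SEF, had 59.4, 76.2 and 42.4 CPM in S9, 41.8, 45.6 and 33.3 CPM in S7, and 22.6, 17.3 and 25.3 CPM in S6, with S9 above S6 by 1.45 on the log2 scale (SE 0.24, edgeR adjusted p = 0.019). DUSP5, a nuclear phosphatase of ERK, had 6.96, 6.74 and 4.87 CPM in S9, 8.98, 11.04 and 9.02 CPM in S7, and 19.3, 20.8 and 16.7 CPM in S6, and S9 against S6 gave a log2 fold change of -1.61 by edgeR (SE 0.21, adjusted p = 0.0132). The 3 groups did not overlap for DUSP5. Of all genes, 35.5% lay apart between S9 and S6, 21.2% between S7 and S6 and 17.2% between S9 and S7. DUSP4, a related phosphatase, had 14.4, 18.2 and 22.4 CPM in S9, 14.3, 45.1 and 70.3 CPM in S7, and 149, 46.9 and 108 CPM in S6 (log2 fold change -2.47, edgeR adjusted p = 0.0326). The inhibitors and ETS factors most often used as readouts of FGF signalling did not pass, with S9 against S6 log2 fold changes of 0.40 for SPRY1, 0.41 for SPRY2, 0.63 for SPRY4, -0.48 for DUSP6, -0.82 for ETV4 and 0.29 for ETV5 and edgeR adjusted p from 0.172 to 0.625.

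**Figure D4:**
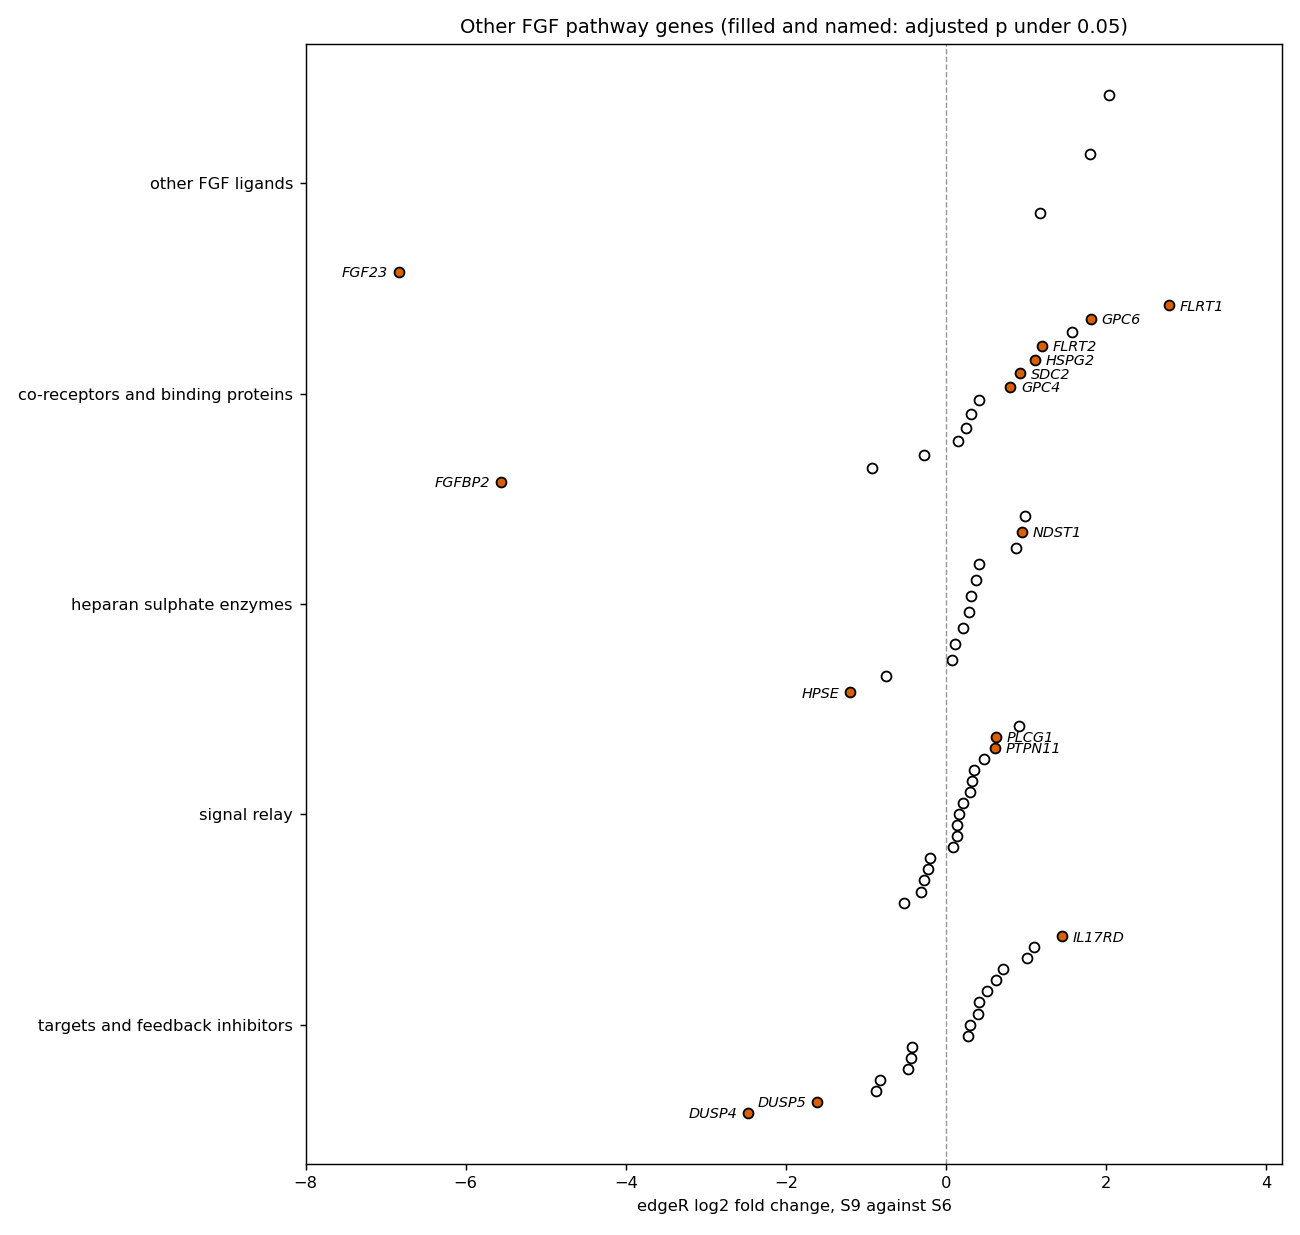
Log2 fold change by edgeR of S9 against S6 (horizontal axis) for the 64 tested pathway genes outside the 10 members, in rows by role and ordered by value within a row. Filled, named points have an adjusted p below 0.05. 10 of them lie right of 0 and 5 left of it, with FGF23 and FGFBP2 farthest left.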

How the data were processed

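Polyadenylated RNA of 9 urethral libraries was prepared with a SMARTER mRNA-Seq kit, per the labels' protocols. The authors deposited whole-number read counts per gene, not normalized, and FPKM values of the same libraries. Per the submitters' processing notes fastp, HISAT2 and HTSeq were used. Versions, genome build and strand setting were not given in the sources used here. Dividing each count by its column total and its deposited FPKM gave a whole gene length, to a relative tolerance of 1e-06, for 172953 of 172961 FPKM above 0. Columns were mapped to samples by title, and 515 rows with a LOC number were renamed through RefSeq gene IDs.

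Genes were kept by filterByExpr (minimum count 10, minimum total 15). Counts were scaled by TMM, and the 3 groups entered 1 robust quasi-likelihood model in edgeR 4.0.16 (R 4.3.3), with Benjamini-Hochberg adjustment over all 17102 genes and a threshold of 0.05. The common biological coefficient of variation was 41.9%. Scripts were tested on simulated data. Standard errors and 95% intervals were derived from each F statistic. The alternatives were other scalings, filters and tools (DESeq2 1.42.0, limma 3.58.1), FPKM, a replicate block, subsets of libraries and a length correction.

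The text names all 10 members in each comparison, and of each pathway list up to 4 called genes per comparison by p and 10 genes set by name, of which FGFBP1 and FGFRL1 are not analysed here. For each called member the 3 genes of closest pattern are named. FGF11, FGF12, FGF13, GPC4, HSPG2 and FGFBP2 are named after their values were seen. The members and lists were chosen with earlier results of these data known.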

Additional observations from a re-analysis of the deposited data

How the results depend on the processing

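Between S9 and S6 edgeR called 3 members. DESeq2 called 5, adding FGF2 and FGFR4, the 6 high-mitochondrial libraries gave 0, and fits without 1 library gave 0 to 3. FGFR1 stayed called in 17 of 22 alternatives, FGF1 in 14 and FGFR2 in 12, with a positive log2 fold change in each of them. Pathway genes called there were 15 by edgeR, 25 by limma-voom, 0 in the 6 libraries and 0 to 16 in fits without 1 library. For S7 against S6 the members called were 0, but 1 by DESeq2 and 1 by limma-voom, and the pathway genes 0, but 11 by DESeq2 and 4 by limma-voom. In the F test the members called were 0, but 1 with at least 1 CPM in 3 libraries, 3 by DESeq2, 2 by limma-voom, 1 on log2(FPKM + 0.1) and 1 with a term for S9_4, S7_3 and S6_4. Over all genes, S9 against S6 gave 2115 calls, 4112 by DESeq2, 4061 by limma-voom, 7 in the 6 libraries and 0 to 2076 without 1 library. S7 against S6 gave 19, but 1417 by DESeq2, 306 by limma-voom, 52 and 37 on FPKM, 0 in the 2 groups alone, 4 with the mitochondrial term, 0 in the 6 libraries and 0 to 10 without 1 library. S9 against S7 gave 0, but 123 by DESeq2 and 1 in the 6 libraries. The cause of these differences was not tested.

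The replicate number was not taken to pair the libraries, since the labels do not say what it marks. Deviations from the group means were correlated between same-numbered libraries of different groups. The correlations were -0.0649 and 0.127 for S9 with S6 (numbers 2 and 4), 0.139, 0.132 and 0.0226 for S7 with S6 (numbers 2, 3 and 4), and 0.064 and 0.0201 for S9 with S7 (numbers 2 and 4). Between libraries of different numbers they ran from -0.178 (S6_2 with S7_3) to 0.103 (S7_3 with S9_4). The 0.139, 0.132 and 0.127 of same-numbered libraries lay above that range, so a pairing is not excluded. The 0.127 belongs to S6_4 with S9_4, which share low mitochondrial counts as well as a number, and these cannot be told apart. S7_3 and S9_4, at the top of the range, share low mitochondrial counts too. Among the S7 libraries S6_4 correlated most with S7_3 (0.0445), and over those of both other groups with S9_4. With the number as a replicate block edgeR called 0 members and 0 pathway genes between S9 and S6, and 16, 1 and 0 genes in all for S9 against S6, S7 against S6 and S9 against S7. This fit also removes S9_1, which has no partner, from the comparison.

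Signs changed only for members and pathway genes that were not called. For S9 against S6, FGF10 was -0.21 and SPRY2 -0.0646 with the replicate block, FGF18 was -0.0768 with a length correction, and ETV5 ran from -0.0023 to 0.6869 without 1 library. FGFR4 in S7 against S6 was -0.15 by limma-voom and ran from -0.30 to 1.94 without 1 library. For S9 against S7, FGF7 was -0.0917 with the block, -0.0124 with a length correction and -0.16 to 0.20 without 1 library. Without 1 library FGF18 ran from -0.23 to 0.0242 and FGFR3 from -0.32 to 0.13 there. On CPM in place of FPKM the mean share of FGFR2 among receptors was 30.1% in S9 and 23.4% in S7, and that of FGFR1 60.7% in S7. FGF9 and FGFR4 are limited by their low counts.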
